A study of Mus musculus with 36 samples.

Results

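The genes described here are 37 imprinted genes of the mouse, taken by name from 46603 genes in each count table of the embryonic forebrain and arranged by imprinted domain and by the parental allele that is known to be expressed. They fall into 19 domains. Of the 37, 36 had enough counts to be tested at each of 2 stages. The exception was Phlda2, a placental growth inhibitor, with 0 to 9 counts per library. Neocortices at E12.5 came from single C57Bl/6J embryos of 4 genotypes, with 3 libraries each. The genotypes were wild type (Chd8 +/+), Chd8 +/- and, as hypomorphs, Chd8 neo/neo as well as Chd8 neo/-. The neo allele carries a selection cassette between exons 3 and 4 that lowers Chd8 expression, and the minus allele is a null allele that lacks exon 3. Telencephalic vesicles at E10.5 came from Ctrl embryos, labelled as a combination of Chd8 f/f and Chd8 f/+, and from cKO embryos, which carry sox1-Cre and Chd8 f/f so that Chd8 is deleted in the neuroepithelium, with 3 libraries each and 2 embryos pooled per library. All groups are of one inbred strain, so that reads from the maternal and the paternal allele cannot be told apart, and every value below is the sum over both alleles.

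An imprinted gene is transcribed mainly from the allele of one parent, for most such genes because a control region nearby was methylated in one germ line only. Domains usually pair protein-coding genes of one parental allele with a long noncoding RNA of the other, and the control regions are kept methylated in the embryo by KRAB zinc finger proteins and the maintenance methyltransferase. In the brain these genes are known for roles in growth, feeding behaviour and neuronal differentiation. CHD8 is a chromatin remodeller that was described as a partner of the insulator protein CTCF, including at the control region between Igf2 and H19, and the comparisons below ask how the domains respond when CHD8 is lowered by different amounts.

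Libraries held 38774591 to 61051667 counts at E12.5 and 49632937 to 68488879 at E10.5. Chd8 mRNA was 237 CPM (counts relative to the TMM-adjusted library size) in Chd8 +/+, 167 in Chd8 +/-, 209 in Chd8 neo/neo, with 149 in Chd8 neo/- neocortices, and 171 in Ctrl and 121 in cKO vesicles, and no mutant library reached its controls. Counts over the whole gene do not tell full-length transcripts from those spliced into the cassette or lacking exon 3. Nor do they give the order of CHD8 protein. For full-length protein at E12.5, the paper reports a larger loss in Chd8 neo/neo than in Chd8 +/- and the largest in Chd8 neo/-. In cKO embryos it reports a loss of CHD8 staining from the neural tube. All 10 forebrain progenitor markers examined, among them Emx2 and Pax6, averaged over 1 CPM at both stages. Of 10 neuron markers all did at E12.5 and 9 did at E10.5, where Neurod6 was at 0 in every library. The summed neuron markers were 3961 to 4667 CPM in Chd8 +/+, 4043 to 4739.5 in Chd8 +/-, 3258 to 3829 in Chd8 neo/neo, with 3611 to 4015 in Chd8 neo/- libraries. The 12 markers of mesenchyme and meninges summed to 736 to 928 CPM in Chd8 +/+, 609.7 to 768 in Chd8 neo/neo, with 689.7 to 791 in Chd8 neo/-, and Chd8 +/- replicate 2 stood above all other E12.5 libraries with 1275 CPM. At E10.5 these markers were higher in cKO (1059.8 to 1252 CPM) than in Ctrl (862 to 958 CPM). Xist was at 1460 to 2040 CPM in Chd8 +/+ replicate 3, Chd8 +/- replicate 1 and Chd8 neo/neo replicates 1 and 2 and under 3 CPM in the others at E12.5. In tissue counts, fewer cells of a type and less RNA per cell cannot be told apart.

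In the controls the imprinted genes covered a wide range of expression. Per kilobase of exon, Nnat, which encodes a membrane proteolipid of developing neurons, was at 983 CPM per kb in Chd8 +/+ neocortices at E12.5, followed by the mesodermal hydrolase gene Mest at 151, the growth suppressor Ndn (necdin) at 145 and the noncoding RNA H19 at 124. At E10.5 Mest stood at 453, Nnat at 417, H19 at 412 and the growth factor receptor adaptor Grb10 at 152 CPM per kb in Ctrl vesicles. The lowest of the tested members at E12.5 were Kcnq1ot1, the noncoding RNA of the Kcnq1 domain, at 0.388 CPM per kb and Airn, the noncoding RNA of the Igf2r domain, at 0.588. Both are long RNAs with large unspliced parts, and the length used here is that of the annotated exons. It is 84395 bases for Kcnq1ot1, its whole gene, and 3583 for Airn, a small part of its gene. Before division by length, Kcnq1ot1 was at 32.7 and Airn at 2.11 CPM in Chd8 +/+ neocortices.

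Several members differed widely between the 2 control groups. Magel2, a ubiquitin ligase regulator of the Snrpn domain, was 66.3 ± 15.1 CPM (SD, n = 3) at E12.5 against 4.76 ± 0.688 at E10.5, a ratio of 13.9. Nap1l5, a nucleosome assembly protein, had a ratio of 8.45, Usp29, a deubiquitinase of the Peg3 domain, one of 7.11 and Peg13, a noncoding RNA, one of 3.54. In the other direction stood Slc38a4, an amino acid transporter, with 9.35 ± 0.911 CPM at E12.5 against 66.5 ± 9.81 at E10.5, Mest with 597 ± 25.7 against 1786 ± 114 and H19 with 294 ± 24.6 against 976 ± 51.5. Within a domain the directions were not uniform: Dlk1 was 79.0 ± 4.86 CPM at E12.5 and 201 ± 34.9 at E10.5, and Meg3 of the same domain was 497 ± 101 and 339.8 ± 39.3. The 2 stages were dissected, pooled and scaled separately, so that stage cannot be told apart from these and no test was made.

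**Figure D1:**
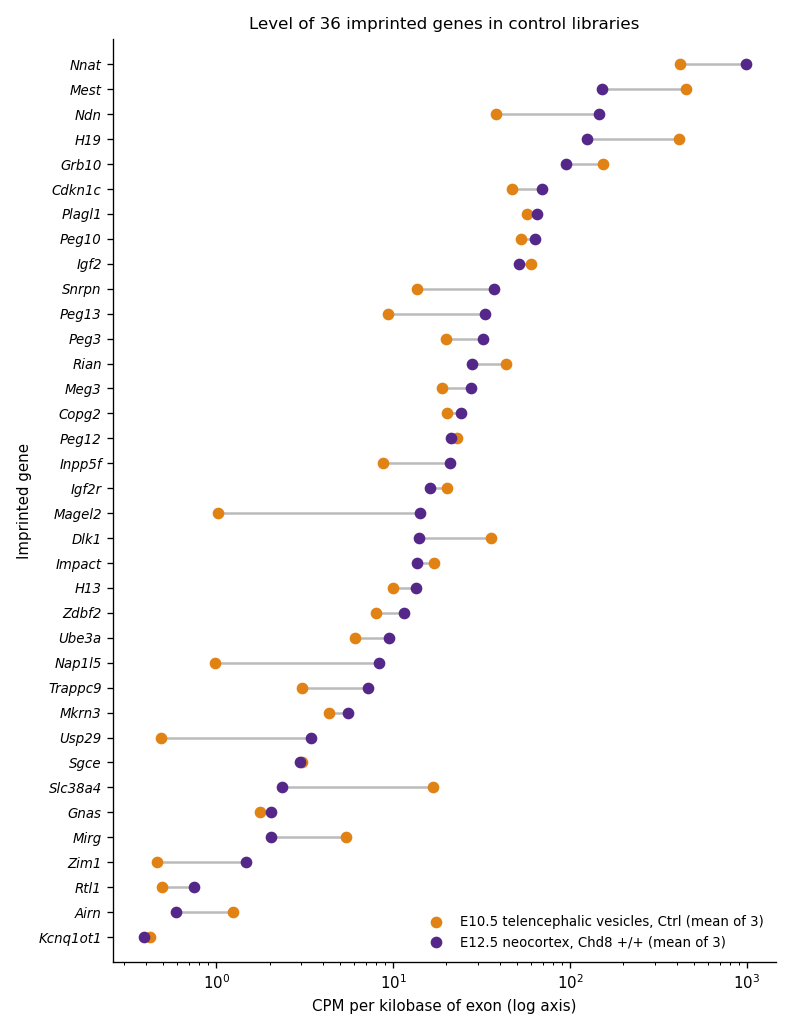
Mean level in CPM per kilobase of exon (log axis) of the 36 tested imprinted genes in E10.5 Ctrl vesicles (orange) and E12.5 Chd8 +/+ neocortices (purple), 3 libraries each, with a line joining the stages. Nnat is the highest at E12.5 with 983, and Magel2, Nap1l5, Usp29 and Slc38a4 have the longest lines.

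Of the 36 tested members, 12 passed the test (edgeR quasi-likelihood test, adjusted p under 0.05 over all genes) in at least 1 of 7 comparisons between genotypes: 6 in neocortices and 7 in vesicles, with Peg12 in both. The share of all genes that passed in at least 1 of the 7 was not counted, so this count cannot be called high or low. In Chd8 +/- neocortices 0 of 36 members passed against Chd8 +/+ by edgeR and by DESeq2, and 0 had an unadjusted p under 0.05, where 0.0213% of all 18810 genes passed and 6.33% had such a p. Chd8 neo/neo neocortices had 6 members past the threshold against Chd8 +/+ (16.7%, against 8.16% of all genes), 1 higher and 5 lower, where 3.71% of all genes were higher and 4.45% lower. In Chd8 neo/- neocortices there were 4 (11.1%, against 11.5% of all genes), all lower (5.99% of all genes were), a share near that of all genes. The median log2 fold change over the 36 members was -0.06 in Chd8 neo/neo, with -0.08 in Chd8 neo/-, where the median over all genes was 0.01 and 0.00. All 3 comparisons used the same Chd8 +/+ libraries. The ranges of the groups were apart for many genes: in Chd8 neo/neo for 2 members upwards and 9 downwards (12.5% and 13.5% of all genes) and in Chd8 neo/- for 4 and 8 (16.4% and 16.9% of all genes), and in cKO against Ctrl for 5 and 8 (15.7% and 16.6% of all genes). Against Chd8 +/-, 5 members passed in Chd8 neo/neo (5.28% of all genes; 3 members with the replicate number as a block) and 3 in Chd8 neo/- (5.43% of all genes), and between both hypomorphs 0 passed by edgeR and by DESeq2, with 2 at an unadjusted p under 0.05 (0.0159% of all genes passed and 8.43% had such a p). At E10.5, 7 of 36 members passed in cKO vesicles (19.4%, against 11.4% of all 18435 genes), 3 higher and 4 lower (5.75% and 5.7% of all genes), with a median of -0.03 over the members and 0.00 over all genes.

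**Figure D2:**
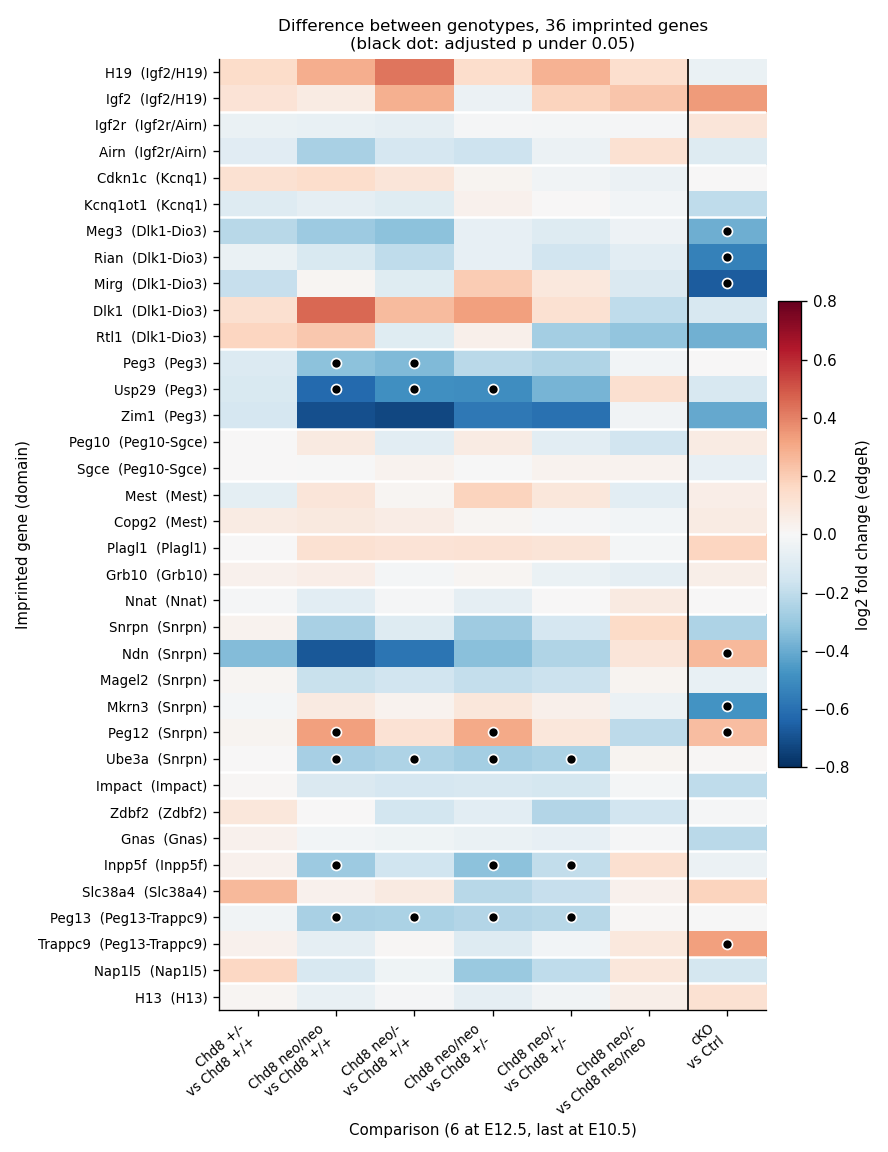
Log2 fold change of each of the 36 tested imprinted genes (rows, with their domain) in 6 comparisons at E12.5 and 1 at E10.5 (columns), red higher and blue lower in the genotype named first, with a black dot where the edgeR adjusted p was under 0.05. Dots in the E12.5 columns lie on Peg3, Usp29, Peg12, Ube3a, Inpp5f and Peg13, those of the E10.5 column on Meg3, Rian, Mirg, Ndn, Mkrn3, Peg12 and Trappc9, and the Chd8 +/- column has none.

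Among the members that passed in E12.5 neocortices, Ube3a had the smallest adjusted p among the members for both hypomorphs against Chd8 +/+ and the smallest spread within groups (SD 0.0398 on the log2 scale). Ube3a (ENSMUSG00000025326, chromosome 7, 59228750 to 59311536, GRCm38, plus strand) encodes a ubiquitin ligase that is silenced on the paternal allele in mature neurons by an antisense transcript of the Snrpn domain. It was measured at 184, 199.9 and 196 CPM in Chd8 +/+, 194, 192 and 196 in Chd8 +/-, 159, 161 and 162 in Chd8 neo/neo, with 158, 164 and 167 in Chd8 neo/- libraries. All 6 hypomorph libraries lay under all 6 others, and Chd8 +/- overlapped Chd8 +/+. The log2 fold change against Chd8 +/+ was -0.27 (edgeR adjusted p = 0.00243, SE 0.0393) for Chd8 neo/neo and -0.25 (edgeR adjusted p = 0.00155, SE 0.0393) for Chd8 neo/-. Against Chd8 +/- it was -0.27 (edgeR adjusted p = 0.00897) and -0.25 (edgeR adjusted p = 0.00385). These 4 calls were kept in all 21 alternative analyses each. At E10.5 Ube3a was 118, 129.96 and 126 CPM in Ctrl and 114, 134 and 128 in cKO, with a log2 fold change of 0.01. The difference between this value and that of Chd8 neo/- passed a test that was added after the data were seen (3 of 36 members and 6.79% of all genes passed it), with a log2 difference of 0.25 (edgeR adjusted p = 0.0413, SE 0.072), although stage, allele, pooling and dissection differ as well. This call was lost in 9 of 12 fits without 1 library, all but those without Chd8 +/+ replicate 1, Ctrl replicate 2 or cKO replicate 1 (adjusted p = 0.0606 to 0.135).

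The counting at E12.5 did not use strand, and 8.8% of the exon bases of Ube3a are shared with Snhg14, the host of its antisense transcript, whose reads there were not counted for either gene. Snhg14 itself was 135, 139 and 122 CPM in Chd8 +/+, 103, 101 and 104 in Chd8 neo/neo, with 115, 102 and 116 in Chd8 neo/- libraries. It was lower with a log2 fold change of -0.36 (edgeR adjusted p = 0.00264) for Chd8 neo/neo and -0.25 (edgeR adjusted p = 0.00978) for Chd8 neo/- neocortices, and of -0.59 (edgeR adjusted p = 0.0113) in cKO vesicles. Antisense reads in the rest of Ube3a would count towards Ube3a, so the levels of these 2 genes are uncertain in the same places. The neuron markers given above were lower in Chd8 neo/neo than in Chd8 +/+ libraries, with 3 of 10 passing as lower, and their part in these results was not tested.

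Peg12, an intronless gene of the Snrpn domain whose protein is related to the GSK3-binding FRAT proteins of Wnt signalling, was the one member that passed as higher by edgeR at E12.5. It stood at 57.9, 51.4 and 59.3 CPM in Chd8 +/+, 55.4, 60.2 and 55.9 in Chd8 +/-, 70.3, 78.5 and 62.5 in Chd8 neo/neo, with 60.7, 62.4 and 59.7 in Chd8 neo/- libraries. Chd8 neo/neo libraries lay above both Chd8 +/+ and Chd8 +/-. Of the 10 forebrain progenitor markers, 2 passed as higher and 9 had a positive fold change in Chd8 neo/neo against Chd8 +/+. Their summed levels were 3479 to 3853 against 3384 to 3634 CPM. Their part in the rise of Peg12 was not tested. Set on the log2 scale, its fold change was 0.33 (edgeR adjusted p = 0.0190, SE 0.0742) against Chd8 +/+ and 0.30 (edgeR adjusted p = 0.0358, SE 0.0743) against Chd8 +/-, and in Chd8 neo/- against Chd8 +/+ it was 0.12 (edgeR adjusted p = 0.354). The first call was lost without Chd8 +/+ replicate 2 and Chd8 neo/neo replicates 1 or 2, with adjusted p-values of 0.0699, 0.0581 and 0.0882. The second was lost with the replicate number as a block (adjusted p = 0.0570) and in 7 of 12 fits without 1 library, namely Chd8 +/- replicates 1 and 3, Chd8 neo/neo replicates 1 and 2 and each Chd8 neo/- replicate, with adjusted p-values of 0.0506 to 0.135. It was also lost with sex-linked expression as a covariate. Both calls were lost with only the 2 groups compared in the fit.

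The other genes of the Snrpn domain did not pass at E12.5. Snrpn, which encodes a spliceosomal protein, was 75.5, 88.2 and 77.8 CPM in Chd8 +/+ and 59.7, 68.6 and 73.6 in Chd8 neo/neo libraries, which do not overlap, with a log2 fold change of -0.26 (edgeR adjusted p = 0.0624, DESeq2 adjusted p = 0.0206). Against Chd8 +/- it was -0.29 (edgeR adjusted p = 0.0521, DESeq2 adjusted p = 0.00891), and 27.3% of its exon bases are shared with overlapping transcripts, Snurf among them. Mkrn3, a zinc finger ubiquitin ligase, was between 13.2 and 15.8 CPM in the 12 libraries. Magel2 ranged from 43.4 to 82.5 CPM with overlap of all genotypes.

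**Figure D3:**
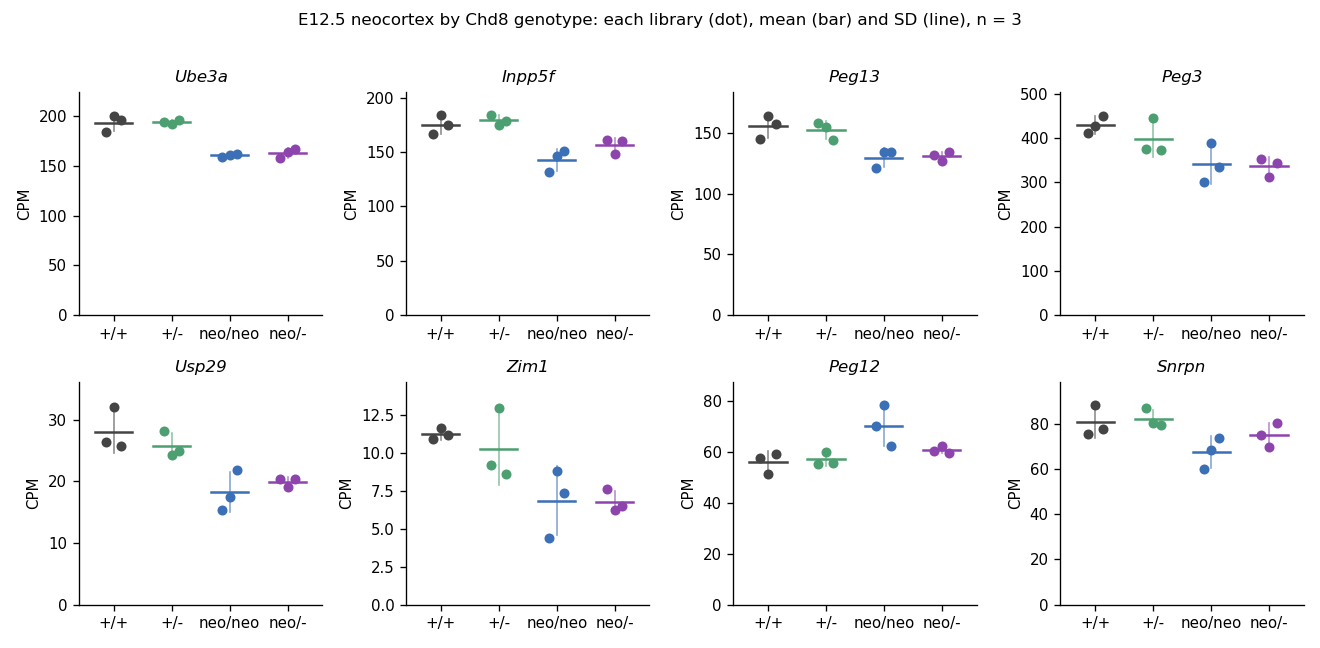
Level in CPM (axes from 0) of 8 imprinted genes in E12.5 neocortices of 4 Chd8 genotypes, with 1 dot per library, the mean as a bar and the SD as a vertical line. Ube3a, Inpp5f, Peg13, Peg3, Usp29 and Zim1 are lower in both hypomorphs than in Chd8 +/+ with no overlap, Peg12 is highest in Chd8 neo/neo, and Zim1, Snrpn and Inpp5f in Chd8 neo/- did not pass the test against Chd8 +/+.

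The Peg3 domain lies on proximal chromosome 7. Peg3 encodes a large zinc finger protein with roles in growth and maternal behaviour, and Usp29 is transcribed from the paternal allele in the opposite direction from the same start region, while the zinc finger gene Zim1 next to Peg3 is maternally expressed. The promoter windows of RefSeq (GRCm38.p6, 250 bases before to 50 after the start) of Peg3 (chr7:6730370-6730669, minus strand) and Usp29 (chr7:6730333-6730632, plus strand) overlap and hold 13 and 17 CG dinucleotides, counted by letters alone, where 37.9% and 31.4% of 32851 promoter windows hold as many or more. Methylation of these CG bases was not measured, and its part in the levels of either gene was not tested. The window of Peg3 is shown because it overlaps that of Usp29 and both genes were lower in the hypomorphs. It reads 5′ to 3′ on the minus strand with each CG in capitals.
Peg3 promoter: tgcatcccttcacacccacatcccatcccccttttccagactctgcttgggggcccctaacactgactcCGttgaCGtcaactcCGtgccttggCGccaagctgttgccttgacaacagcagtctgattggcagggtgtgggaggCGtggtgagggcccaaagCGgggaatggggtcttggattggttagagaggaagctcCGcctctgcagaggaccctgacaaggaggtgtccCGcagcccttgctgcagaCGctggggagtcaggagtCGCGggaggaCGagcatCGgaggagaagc

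Peg3 and Usp29 were both lower in the hypomorphs. Peg3 was 412, 427 and 452 CPM in Chd8 +/+, 376, 446 and 373 in Chd8 +/-, 301, 389.6 and 336 in Chd8 neo/neo, with 353, 313 and 344 in Chd8 neo/- libraries. Every hypomorph library lay below every Chd8 +/+ library, while Chd8 +/- overlapped both Chd8 +/+ and Chd8 neo/neo. The log2 fold change against Chd8 +/+ was -0.33 (edgeR adjusted p = 0.0473, SE 0.0921) for Chd8 neo/neo and -0.35 (edgeR adjusted p = 0.0285, SE 0.0921) for Chd8 neo/-. The Chd8 neo/neo call was lost in 13 of 21 alternatives, including the fits without Chd8 +/+ replicates 1, 2 or 3, Chd8 +/- replicate 3, Chd8 neo/neo replicates 1 or 3 and Chd8 neo/- replicates 1 or 3 (adjusted p = 0.0557 to 0.132), and that of Chd8 neo/- in 7, among them those without Chd8 +/+ replicates 2 or 3 or any Chd8 neo/- replicate (adjusted p = 0.0516 to 0.106) and that with sex-linked expression as a covariate (adjusted p = 0.0561). With this covariate the Chd8 neo/neo call was lost as well.

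Usp29 had the largest change among the members that passed at E12.5. Its levels were 26.5, 32.1 and 25.7 CPM in Chd8 +/+, 28.1, 24.2 and 24.99 in Chd8 +/-, 15.4, 17.5 and 21.8 in Chd8 neo/neo, with 20.4, 19.03 and 20.4 in Chd8 neo/- libraries, so that both hypomorphs lay below all other libraries. The log2 fold change was -0.62 (edgeR adjusted p = 0.0106, SE 0.117) for Chd8 neo/neo and -0.49 (edgeR adjusted p = 0.0188, SE 0.116) for Chd8 neo/- against Chd8 +/+. Against Chd8 +/- it was -0.50 (edgeR adjusted p = 0.0350, SE 0.117) in Chd8 neo/neo, which did not pass with the replicate number as a block (adjusted p = 0.0615), and -0.37 (edgeR adjusted p = 0.0867, DESeq2 adjusted p = 0.0188) in Chd8 neo/-. Without Chd8 neo/neo replicate 2 the first call was lost (adjusted p = 0.0519), the second was lost without Chd8 +/+ replicate 2 or any Chd8 neo/- replicate (adjusted p = 0.0564 to 0.0808), and the third in 8 of 12 fits without 1 library, those of all Chd8 +/- and Chd8 neo/- replicates and Chd8 neo/neo replicates 1 and 2 (adjusted p = 0.0502 to 0.121). The third was also lost with sex-linked expression as a covariate. Of the exon bases of Usp29, 32.8% are shared, almost all with Zim3 on the other strand, and were not counted. Zim1 was 10.9, 11.7 and 11.2 CPM in Chd8 +/+, 4.39, 8.84 and 7.35 in Chd8 neo/neo, with 7.62, 6.27 and 6.54 in Chd8 neo/- libraries. With log2 fold changes of -0.70 (edgeR adjusted p = 0.0743, SE 0.219) and -0.73 (edgeR adjusted p = 0.0578, SE 0.220) it did not pass, although the groups did not overlap, and with DESeq2 it passed with adjusted p-values of 0.00492 and 0.00299, and against Chd8 +/- of 0.0315 and 0.0269. At E10.5 Peg3 was 233, 272.8 and 287 CPM in Ctrl and 235, 262 and 297 in cKO, and Usp29 was 3.40 to 4.81 and 3.29 to 4.01 CPM, both overlapping between the groups. Zim1 was 3.08, 3.09 and 4.38 CPM in Ctrl and 2.70, 2.68 and 2.58 in cKO, without overlap, with a log2 fold change of -0.41 (edgeR adjusted p = 0.119).

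Peg13 fell in both hypomorphs and Inpp5f fell in Chd8 neo/neo against both reference groups and in Chd8 neo/- against Chd8 +/- alone. Inpp5f encodes an inositol phosphatase of which a short brain isoform is paternally expressed, and the counts hold all isoforms. Its levels were 167, 184 and 174 CPM in Chd8 +/+, 184, 175 and 178 in Chd8 +/-, 131, 146 and 151 in Chd8 neo/neo, with 161, 148 and 159.7 in Chd8 neo/- libraries. Chd8 neo/neo lay under both groups, with a log2 fold change of -0.29 (edgeR adjusted p = 0.00703, SE 0.0537) against Chd8 +/+, kept in all 21 alternatives, and of -0.33 (edgeR adjusted p = 0.0135, SE 0.0537) against Chd8 +/-, lost without Chd8 +/- replicate 1 (adjusted p = 0.0513) or Chd8 neo/neo replicate 2 (adjusted p = 0.0541). In Chd8 neo/- it was -0.16 (edgeR adjusted p = 0.0659, DESeq2 adjusted p = 0.0453) against Chd8 +/+ and -0.19 (edgeR adjusted p = 0.0491, SE 0.0537) against Chd8 +/-. The last was lost in 12 of 21 alternatives, those without each Chd8 +/- and each Chd8 neo/- replicate, Chd8 +/+ replicate 3 or Chd8 neo/neo replicate 2 included (adjusted p = 0.0607 to 0.200). The fit with sex-linked expression as a covariate is among the alternatives that lost it. The Chd8 neo/neo call against Chd8 +/- was also lost with only the 2 groups compared in the fit.

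Peg13 (ENSMUSG00000106847, chromosome 15, 72805600 to 72810324, GRCm38) is a paternally expressed noncoding RNA inside Trappc9, a gene for a subunit of a vesicle tethering complex with a maternal bias in brain. No exon bases of these 2 genes overlap. Peg13 was 145, 164 and 157 CPM in Chd8 +/+, 158, 155 and 145 in Chd8 +/-, 121, 135 and 134 in Chd8 neo/neo, with 132, 127 and 134 in Chd8 neo/- libraries, and the hypomorphs lay below all others. The log2 fold change was -0.26 (edgeR adjusted p = 0.0118, SE 0.0537) for Chd8 neo/neo and -0.25 (edgeR adjusted p = 0.00879, SE 0.0537) for Chd8 neo/- against Chd8 +/+, and -0.23 (edgeR adjusted p = 0.0293) and -0.22 (edgeR adjusted p = 0.0286) against Chd8 +/-. The call in Chd8 neo/- against Chd8 +/+ was kept in all 21 alternatives. That in Chd8 neo/neo was lost without Chd8 +/+ replicate 2 (adjusted p = 0.0611) or Chd8 neo/neo replicate 1 (adjusted p = 0.0519). Against Chd8 +/-, the Chd8 neo/neo call was lost without Chd8 +/- replicates 1 or 2 or Chd8 neo/neo replicates 1 or 2 (adjusted p = 0.0545 to 0.110), and the Chd8 neo/- call without Chd8 +/- replicates 1 or 2 or any Chd8 neo/- replicate (adjusted p = 0.0609 to 0.125). Each of these calls against Chd8 +/- was also lost with sex-linked expression as a covariate. Both Chd8 neo/neo calls were lost with only the 2 groups compared in the fit. Trappc9 was 45.1 to 47.4 CPM in Chd8 +/+ and 46.1 to 46.4 in Chd8 neo/- libraries, with a log2 fold change of 0.01 (SE 0.0427). In Chd8 neo/neo it was 43.1, 43.2 and 44.8 CPM, below every Chd8 +/+ and Chd8 +/- library. Against Chd8 +/+, 13.5% of all genes lay lower in this way. Its log2 fold changes there did not pass, at -0.07 (edgeR adjusted p = 0.331) against Chd8 +/+ and -0.10 (edgeR adjusted p = 0.164) against Chd8 +/-. Inpp5f, Peg13, Ube3a, Usp29 and Peg3 had 2.39, 3.54, 1.55, 7.11 and 1.63 times the E10.5 control level in E12.5 controls. Members that did not pass at E12.5 had like or larger ratios, such as Magel2 with 13.9, Nap1l5 with 8.45 and Nnat and Trappc9 with 2.36. The part of the lower neuron markers in these results was not tested.

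In cKO vesicles at E10.5, 3 of the 7 members that passed lie in the Dlk1-Dio3 domain, which had none at E12.5, and the others lie in the Snrpn and Peg13-Trappc9 domains. The 3 maternally expressed noncoding RNAs of the Dlk1-Dio3 domain on chromosome 12 fell together: Meg3 (109541001 to 109571726, plus strand), Rian (109603940 to 109661716), which hosts small nucleolar RNAs, and Mirg (109729764 to 109749460), which hosts microRNAs. The RefSeq table holds 3 mature microRNAs inside Meg3, 6 inside Rian and 26 inside Mirg, on the same strand. Mature microRNAs were not measured in these libraries, which hold longer RNA only. A few are printed because they show what these host RNAs carry, with the seed (bases 2 to 8) in capitals, from RefSeq on GRCm38.p6. Of the mature microRNAs inside these 3 genes and on the strand opposite Rtl1, miR-453 and miR-496a-5p were the only ones to share a seed.
miR-770-5p (Meg3): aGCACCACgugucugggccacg
miR-341-3p (Rian): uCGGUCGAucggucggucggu
miR-370-3p (Rian): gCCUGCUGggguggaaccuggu
miR-382-5p (Mirg): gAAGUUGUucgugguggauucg
miR-134-5p (Mirg): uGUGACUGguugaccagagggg
miR-453 (Mirg): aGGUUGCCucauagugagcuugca
miR-496a-5p (Mirg): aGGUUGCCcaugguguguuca
miR-409-3p (Mirg): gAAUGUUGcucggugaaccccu
miR-410-3p (Mirg): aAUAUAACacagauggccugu

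Rian was 717, 777 and 786 CPM in Ctrl and 563, 482 and 525 in cKO libraries. Mirg was 39.1, 37.2 and 41.5 CPM in Ctrl and 27.6, 20.96 and 25.6 in cKO libraries. Meg3 was 295, 367 and 358 CPM in Ctrl and 279.2, 236 and 262 in cKO libraries. For each of the 3 RNAs every cKO library lay below every Ctrl library. The log2 fold changes were -0.54 (edgeR adjusted p = 0.00138, SE 0.0724) for Rian, -0.67 (edgeR adjusted p = 0.00233, SE 0.098) for Mirg and -0.39 (edgeR adjusted p = 0.0224, SE 0.0904) for Meg3. Rian and Mirg kept their call in all 14 alternatives. Meg3 lost it without Ctrl replicate 3, cKO replicate 2 or cKO replicate 3, with adjusted p-values of 0.0824, 0.103 and 0.0674.

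The paternally expressed coding genes of the domain did not pass. Dlk1, a membrane ligand related to Notch ligands that restrains differentiation, was 165, 235 and 203 CPM in Ctrl and 204, 167 and 180.1 in cKO libraries, which overlap, with a log2 fold change of -0.13 (SE 0.131). Rtl1, a retrotransposon-derived gene, was 2.64, 3.21 and 3.60 CPM in Ctrl and 2.21, 2.43 and 2.58 in cKO, with a log2 fold change of -0.39 (edgeR adjusted p = 0.120, SE 0.150). On the strand opposite Rtl1 lie 11 mature microRNAs of a maternally expressed transcript. The use of strand is not given for the E10.5 table, so whether reads of this transcript were counted for Rtl1 there is not known. At E12.5 the noncoding RNAs were 397 to 599 CPM (Meg3), 461 to 520.3 (Rian) and 12.8 to 16.6 (Mirg) in Chd8 +/+ and 338 to 426, 391 to 464 and 12.7 to 14.7 in Chd8 neo/- libraries. None passed there, and the difference between their cKO and Chd8 neo/- values did not pass either (edgeR adjusted p = 0.153 for Mirg, 0.348 for Rian), so that a difference between the stages was not shown. The promoter of Meg3 (chr12:109540746-109541045, plus strand, RefSeq on GRCm38.p6) is given since Rian and Mirg are thought to be parts of one long transcript that starts there. Its 13 CG dinucleotides are in capitals.
Meg3 promoter: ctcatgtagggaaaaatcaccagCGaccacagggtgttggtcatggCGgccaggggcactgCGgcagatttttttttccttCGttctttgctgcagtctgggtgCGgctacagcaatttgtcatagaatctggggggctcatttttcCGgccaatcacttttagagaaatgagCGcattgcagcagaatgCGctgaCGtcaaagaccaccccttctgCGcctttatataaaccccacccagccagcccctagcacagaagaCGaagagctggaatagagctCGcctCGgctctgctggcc

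**Figure D4:**
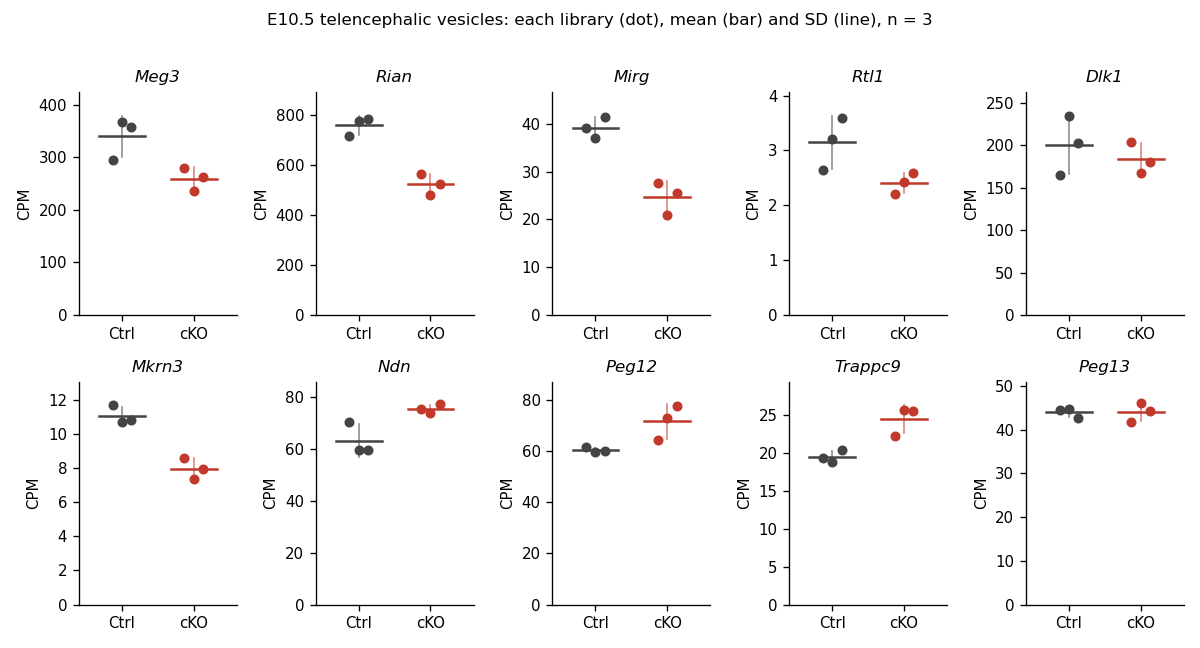
Level in CPM (axes from 0) of 10 imprinted genes in E10.5 Ctrl and cKO vesicles, with 1 dot per library, the mean as a bar and the SD as a vertical line. Meg3, Rian, Mirg and Mkrn3 are lower and Ndn, Peg12 and Trappc9 higher in all 3 cKO libraries than in any Ctrl library, while Dlk1 and Peg13 overlap and Rtl1 did not pass the test.

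Genes of the Snrpn domain moved in both directions in cKO vesicles. Mkrn3 was 11.7, 10.7 and 10.9 CPM in Ctrl and 8.58, 7.36 and 7.99 in cKO libraries, a log2 fold change of -0.48 (edgeR adjusted p = 0.0113, SE 0.0957). Its call was lost without cKO replicate 2 (adjusted p = 0.0807) and with Y-linked expression as a covariate (adjusted p = 0.0555). Ndn rose from 70.7, 59.7 and 59.6 CPM in Ctrl to 75.6, 74.1 and 77.3 in cKO, a log2 fold change of 0.26 (edgeR adjusted p = 0.0437, SE 0.0725). Peg12 rose from 61.5, 59.5 and 59.9 CPM to 64.2, 73.1 and 77.5, a log2 fold change of 0.25 (edgeR adjusted p = 0.0469, SE 0.0717). For these 3 genes the groups did not overlap, but the Ndn call was kept in 7 of 14 alternatives and in 1 of 6 fits without 1 library (lost without Ctrl replicates 2 or 3 or any cKO replicate, adjusted p = 0.0905 to 0.163), and that of Peg12 in 5 and 1 (lost without any Ctrl replicate or cKO replicates 2 or 3, adjusted p = 0.0658 to 0.184). The calls of Ndn and Peg12 were also lost with Y-linked expression as a covariate. Snrpn was 30.9, 28.5 and 28.8 CPM in Ctrl and 23.9, 23.5 and 27.02 in cKO, with a log2 fold change of -0.24 (edgeR adjusted p = 0.0696, DESeq2 adjusted p = 0.0434), and Magel2 overlapped between the groups at 4.09 to 5.56 CPM.

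Trappc9 was 19.3, 18.8 and 20.4 CPM in Ctrl and 22.3, 25.6 and 25.5 in cKO libraries. It rose by a log2 fold change of 0.33 (edgeR adjusted p = 0.0282, SE 0.0822), with no overlap, and the call was lost without Ctrl replicates 1 or 3 or cKO replicates 2 or 3 (adjusted p = 0.0535 to 0.145) and with Y-linked expression as a covariate (adjusted p = 0.0673). Peg13 inside it was 42.7 to 44.8 CPM in Ctrl and 41.8 to 46.0 in cKO libraries, with a log2 fold change of 0.00. The differences between the cKO and the Chd8 neo/- values were -0.50 (edgeR adjusted p = 0.0125, SE 0.113) for Mkrn3 and 0.31 (edgeR adjusted p = 0.0228, SE 0.0784) for Trappc9 on the log2 scale, by the test added after the data were seen. The Trappc9 difference was lost without Chd8 +/+ replicate 3, Chd8 neo/- replicates 1 or 3 or cKO replicates 2 or 3 (adjusted p = 0.0538 to 0.0790). Mesenchyme and meninges markers, with 3 of 11 tested passing as higher, and pericyte markers (204 to 236 CPM in Ctrl, 281.5 to 298 in cKO) moved with the genotype at E10.5. The 8 markers of the ventral telencephalon summed to 33.8 to 55.9 CPM in Ctrl and 22.9 to 33.1 in cKO, without overlap, with 1 of 8 passing as lower. The pools differed in sex: Ctrl replicates 1 and 3 had Y-linked sums of 0.917 and 1.4 CPM, Ctrl replicate 2 had 248 and the cKO pools had 69.8 to 135. The part of these differences in the results of cKO vesicles was not tested beyond the covariate.

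Ndn was the member with the widest spread within groups at E12.5, with an SD of 0.896 on the log2 scale, where the median was 0.161 over the members and 0.116 over all genes. It was 119.9, 325 and 273.99 CPM in Chd8 +/+, 131, 129.7 and 304 in Chd8 +/-, 69.4, 73.0 and 306 in Chd8 neo/neo, with 272, 101 and 107 in Chd8 neo/- libraries. Of the 12 libraries 7 lay at or below 131 CPM and 5 at or above 272, with none between, and each genotype had libraries on both sides. The sequencing runs of a library gave like values, for example 123 and 117 CPM in Chd8 +/+ replicate 1 and 307 and 304 in Chd8 neo/neo replicate 3. Libraries with high Xist stood on both sides, since Chd8 +/+ replicate 3 was at 273.99 and Chd8 neo/neo replicates 1 and 2 at 69.4 and 73.0 CPM. The neighbouring Magel2 and Mkrn3 did not rise with Ndn. Magel2 was higher in libraries with low Ndn than in those with high Ndn in Chd8 +/+ (82.5 against 63.5 and 52.8 CPM). The same held in Chd8 +/- (73.6 and 74.99 against 52.6) and, narrowly, in Chd8 neo/- (55.1 and 69.2 against 54.3). Chd8 neo/neo was mixed (43.4 and 71.5 against 60.7). Mkrn3 was higher with low Ndn in Chd8 +/+ (15.1 against 13.99 and 13.2 CPM) and lower in Chd8 +/- (13.4 and 13.9 against 14.6). A relation between these genes was not tested. With the spread of Ndn, its log2 fold changes of -0.68 (SE 0.742) for Chd8 neo/neo and -0.59 (SE 0.741) for Chd8 neo/- were far from the threshold. At E10.5 Ndn ranged from 59.6 to 77.3 CPM.

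**Figure D5:**
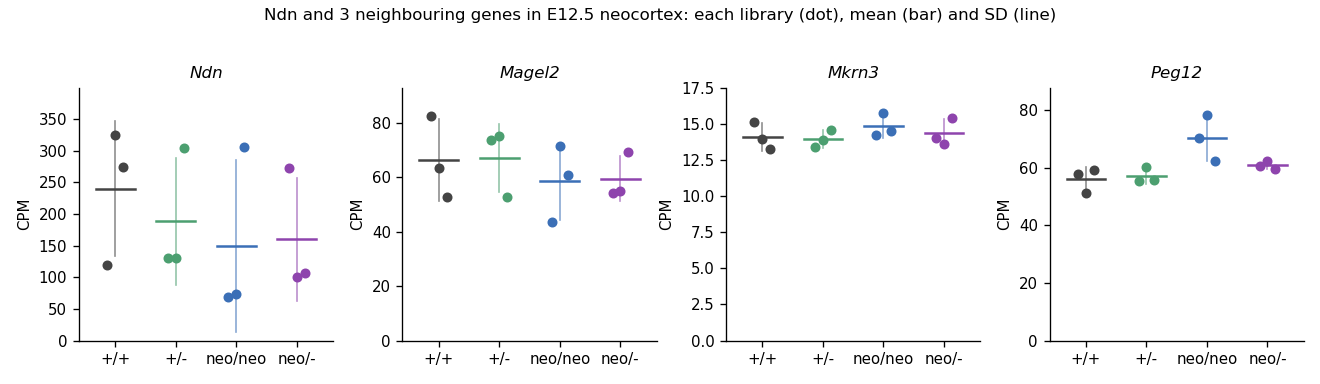
Level in CPM (axes from 0) of Ndn and of 3 genes next to it in the 12 E12.5 libraries, with 1 dot per library, the mean as a bar and the SD as a vertical line. Ndn leaves a gap between 131 and 272 CPM in which no library lies, with libraries of each genotype on both sides, and Magel2, Mkrn3 and Peg12 show no such gap.

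The members of the Igf2/H19 domain did not pass in any comparison by edgeR. H19 was 312, 266 and 303 CPM in Chd8 +/+, 250.3, 406 and 321 in Chd8 +/-, 335, 388 and 355 in Chd8 neo/neo, with 373, 414 and 398 in Chd8 neo/- libraries. Both hypomorphs lay above Chd8 +/+, with log2 fold changes of 0.29 (edgeR adjusted p = 0.250, SE 0.146) and 0.43 (edgeR adjusted p = 0.0931, SE 0.146), and DESeq2 gave an adjusted p of 0.0403 for the latter. The growth factor gene Igf2 was 270.4 to 314 CPM in Chd8 +/+ and 328 to 390.0 in Chd8 neo/- libraries, with a log2 fold change of 0.29 (edgeR adjusted p = 0.209), and in cKO vesicles it was 0.34 (edgeR adjusted p = 0.144, DESeq2 adjusted p = 0.0216). Both genes, and Slc38a4 with 16.3 CPM, were highest within Chd8 +/- in replicate 2, the library with the highest mesenchyme and meninges markers. Erythroid markers were 3052 to 3764 CPM in Chd8 +/+ and 4437 to 7095 in Chd8 neo/- libraries. The part of either in these values was not tested.

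The remaining tested members did not pass in any comparison by edgeR, and some of them varied much within a genotype. Cdkn1c, a cell cycle inhibitor of the Kcnq1 domain, ranged from 91.0 to 193 CPM within Chd8 neo/neo alone, and Dlk1 from 55.1 to 187 CPM. Replicate 2 was the highest of this group for both and for Rtl1, with 8.83 CPM. Against this, Grb10, the lysosomal receptor gene Igf2r, the protease gene H13 and the coatomer gene Copg2 had SDs within groups of 0.0457 to 0.0741 on the log2 scale at E12.5, and their log2 fold changes in the hypomorphs against Chd8 +/+ did not pass. Impact, a translational regulator, was 57.7, 61.3 and 57.1 CPM in Ctrl and 47.7, 51.0 and 54.1 in cKO libraries, without overlap, with a log2 fold change of -0.20 (edgeR adjusted p = 0.0661). Peg10, Sgce, Mest, Plagl1, Nnat, Zdbf2, Nap1l5, Airn, Kcnq1ot1 and Gnas did not pass in any comparison. The value of Gnas, 19.6 to 25.6 CPM in Chd8 +/+, leaves out reads on those exon bases, over 10% of all, that overlap transcripts of the other strand. Mest and Copg2 share 23.1% and 17.8% of theirs with each other.

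By expressed allele, 23 members are paternally and 13 maternally expressed, with Grb10, Ube3a and Trappc9, whose imprinting depends on the tissue, counted as maternal, while Gnas has products of both alleles and was counted with neither. Inpp5f, paternally expressed for a brain isoform, was counted as paternal with all its isoforms, and it is among those that passed in Chd8 neo/neo. In Chd8 neo/neo, 5 of 23 paternally expressed members passed (21.7%; 1 higher, 4 lower) and 1 of 12 tested maternally expressed ones (8.33%, lower), against 8.16% of all genes. In Chd8 neo/- these were 3 (13.04%) and 1 (8.33%), all lower, shares near the 11.5% of all genes. In cKO vesicles, where 11.4% of all genes passed, 3 of 23 paternally expressed members did (13.04%; 2 higher, 1 lower) and 4 of 12 maternally expressed ones (33.3%; 1 higher, 3 lower, the latter the 3 RNAs of the Dlk1-Dio3 domain).

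Among 51 further imprinted genes, 44 were tested at E12.5 and 42 at E10.5. In Chd8 neo/neo 2 were higher and 6 lower (18.2%, against 8.16% of all genes). The counts were, in Chd8 neo/-, 3 and 3 (13.6%, against 11.5%) and in cKO 2 and 4 (14.3%, against 11.4%). The last 2 shares were near those of all genes. Sfmbt2, a Polycomb-group gene known for paternal expression in the placenta, had the smallest adjusted p of this list in each of these comparisons: 4.23, 4.20 and 4.53 CPM in Chd8 +/+, 3.15, 3.12 and 2.50 in Chd8 +/-, 2.41, 2.50 and 2.45 in Chd8 neo/neo, with 2.42, 2.18 and 2.65 in Chd8 neo/- libraries, and 4.20, 4.16 and 5.78 in Ctrl and 2.23, 2.00 and 2.70 in cKO. Every mutant library lay below its controls, with log2 fold changes of -0.82 (edgeR adjusted p = 0.00243, SE 0.121) in Chd8 neo/neo, -0.84 (edgeR adjusted p = 0.000839, SE 0.122) in Chd8 neo/- and -1.03 (edgeR adjusted p = 0.00404, SE 0.168) in cKO. Ntm, a cell adhesion gene, had log2 fold changes of -0.38 (edgeR adjusted p = 0.0352) for Chd8 neo/neo and 0.46 in cKO (edgeR adjusted p = 0.0484). In cKO vesicles Cd81 rose as well (0.39, edgeR adjusted p = 0.0102).

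Of 15 factors that keep or read imprints, 14 were tested. Among them 3 passed in Chd8 neo/neo (1 higher, 2 lower), 3 in Chd8 neo/- (all lower) and 3 in cKO (2 higher, 1 lower). Each was 21.4% of those tested, against 8.16%, 11.5% and 11.4% of all genes. Atrx, a chromatin remodeller, was 467, 471 and 439.7 CPM in Chd8 +/+, 424, 401 and 404 in Chd8 neo/neo, with 385, 389 and 388 in Chd8 neo/- libraries, and it was lower by log2 values of -0.17 (edgeR adjusted p = 0.0289), -0.25 (edgeR adjusted p = 0.00234) and, in cKO, -0.25 (edgeR adjusted p = 0.0281). Zfp445, a KRAB zinc finger protein that protects imprints, was lower in Chd8 neo/- (-0.13, edgeR adjusted p = 0.0363), and Uhrf1, which guides maintenance methylation, was higher in Chd8 neo/neo (0.25, edgeR adjusted p = 0.0406) with groups that overlap.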

How the data were processed

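RNA sequencing of E12.5 neocortices (4 genotypes) and E10.5 telencephalic vesicles (2 groups), 3 libraries each, was used. The authors trimmed paired reads (Trim Galore 0.4.1 per the labels), aligned them to GRCm38.p4 with TopHat2 2.1.0 and counted them on genes with featureCounts 1.5.0. The deposited values are raw counts of read pairs for each gene in each run, and the 2 runs of a library were summed here. Per the file headers, reads at E12.5 were counted without strand on Ensembl 82 genes, and reads of several places or of overlapping genes were not counted; for E10.5 these options are not given in the sources used here. Of 46603 gene IDs, 46005 matched a symbol. The number of sample columns not used was 0.

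Counts were fitted with edgeR 4.0.16 (R 4.3.3; filterByExpr, TMM, robust quasi-likelihood), the 12 E12.5 libraries together and the 6 E10.5 libraries separately, with Benjamini-Hochberg adjustment over all genes and a threshold of 0.05. CPM were scaled with TMM factors, and errors are SDs over libraries, which for E10.5 are pools. The fit was tested on simulated data. Alternatives were DESeq2 1.42.0, RLE and upper quartile scaling, no filter on low counts, each run alone, only the groups compared, sex-linked or Y-linked expression as a covariate, the replicate number as a block, and each library left out. A test of the difference between the stages over all 18 libraries was added after the data were seen. For Chd8 neo/neo against Chd8 +/-, deviations from the group means correlated between libraries of one number with 0.108, 0.195 and 0.199. These were above a threshold of 0.1, so that the numbers were treated as pairing these groups. No source names such a pairing. The paper describes different crosses for Chd8 neo/neo and Chd8 +/- mice and states that replicates came from different litters. The members, the lists and the tests were chosen with earlier results of these data known. Named are all members that passed, examples of the others by domain, and called genes of the 2 further lists, at most the 6 with the smallest adjusted p per list and comparison. Some genes of these lists are counted but not reported by name here. Sequences are those of RefSeq (GRCm38.p6), whose promoter table matched 29 members. Figures were drawn with matplotlib 3.10.9.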

Additional observations from a re-analysis of the deposited data

Results flagged for a closer look

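3 members differed between the stages in the test of the cKO minus Ctrl difference at E10.5 against the Chd8 neo/- minus Chd8 +/+ difference at E12.5, which was added after the data were seen and covers all 18 libraries. Mkrn3 had a log2 difference of -0.50 (SE 0.113, edgeR adjusted p = 0.0125), from -0.48 in cKO and 0.03 in Chd8 neo/-. It kept its call in all 15 alternatives run for this test: RLE and upper quartile scaling, no filter on low counts and 12 fits without 1 library. DESeq2, each run alone, the replicate block and the covariates for sex were not run for this test. The cKO call of Mkrn3 itself was lost with Y-linked expression as a covariate. Trappc9 had a log2 difference of 0.31 (SE 0.0784, edgeR adjusted p = 0.0228), from 0.33 and 0.01, and lost its call without Chd8 +/+ replicate 3, Chd8 neo/- replicates 1 or 3 or cKO replicates 2 or 3 (adjusted p = 0.0538 to 0.0790). Ube3a had a log2 difference of 0.25 (SE 0.072, edgeR adjusted p = 0.0413), from 0.01 and -0.25, and lost its call in 9 of 12 fits without 1 library (adjusted p = 0.0606 to 0.135), all but those without Chd8 +/+ replicate 1, Ctrl replicate 2 or cKO replicate 1. Over all genes 6.79% passed this test. Stage, allele, tissue dissected, pooling and sequencing cannot be told apart in it. Groups of 3 libraries were not examined for outlying libraries.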

How the results depend on the processing

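No result turned its direction under an alternative. Counts of members past the threshold moved by over 1.5 times as follows. With only the compared groups in the fit, 2 in place of 6 passed for Chd8 neo/neo and 7 in place of 4 for Chd8 neo/- against Chd8 +/+, and 1 in place of 5 in Chd8 neo/neo against Chd8 +/-. The Chd8 neo/neo calls kept there were those of Ube3a and Inpp5f against Chd8 +/+ and that of Ube3a against Chd8 +/-. With DESeq2, 7 passed in Chd8 neo/- against Chd8 +/+ and 5 in place of 3 against Chd8 +/-. The covariate for sex left 2 for Chd8 neo/neo and 1 for Chd8 neo/- against Chd8 +/-, that for Y-linked genes left 3 in place of 7 in cKO, and the second run alone left 3 in Chd8 neo/neo against Chd8 +/-. The replicate block left 3 in place of 5 in this last comparison; elsewhere, where the numbers do not pair the libraries, the counts with the replicate block were 0, 5, 4, 2, 0 and 7 in Chd8 +/-, Chd8 neo/neo, Chd8 neo/- (against Chd8 +/+ and Chd8 +/-), between the hypomorphs and in cKO, where Meg3 was not among the 7 (adjusted p = 0.0723). Leaving out 1 library gave 3 to 7 for Chd8 neo/neo and 2 to 7 for Chd8 neo/- against Chd8 +/+, 1 to 7 and 1 to 4 against Chd8 +/-, 2 to 6 in cKO and 1 to 4 for the difference between the stages. In Chd8 +/- against Chd8 +/+ and between the hypomorphs 0 passed in all 21 alternatives. The cause of these shifts was not tested. At 0 to 9 counts per library the depth does not allow a comparison for Phlda2.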
